A study of Mus musculus with 9 samples.

Results

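Chemokines and their receptors were read from the deposited count table by gene symbol: every row named Ccl, Ccr, Cxcl or Cxcr followed by a digit, with Cx3cl1, Xcl1, Xcr1 and Ackr1 to Ackr4. The rule gave 61 of the 24421 rows. Of these, 39 are ligands (24 of the CC family, 13 of the CXC family and 2 others) and 22 are receptors, among them 4 atypical receptors. Cx3cr1, the receptor of Cx3cl1, was left out by the rule and is given only beside its ligand. A position was found for 60 members in GENCODE vM21 (GRCm38, the same assembly as mm10), with 14 on chromosome 11, 13 on chromosome 9 and 11 on chromosome 5.

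The libraries were bulk RNA-seq from brains of C57BL/6 mice, implanted as young adults with SB28, a mouse glioma line that carries GFP and luciferase, and there were 3 libraries in each of 3 groups. The control and BAL101553 libraries are labelled as whole tissue, whereas the study's methods describe sorted GFP-positive SB28 cells without the leukocyte markers CD45 and CD11b. Those methods report fewer ex vivo samples per group than are held here, and the study's data statement names another series. How far they apply to these libraries is therefore uncertain. Control mice received vehicle. BAL101553 (lisavanbulin), an oral prodrug that acts on microtubules and activates the spindle assembly checkpoint, was given by gavage. By the study's methods, these tumors were taken on a later day than control tumors. The compound and the length of growth therefore cannot be told apart. The remaining group is labelled as astrocytes of BAL101553-treated mice, and how these cells were isolated is not given in the sources used here. Nothing in the labels says that libraries of a group came from separate mice, so p-values measure the spread between these libraries, which may be technical.

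Chemokines are small, mostly secreted proteins that direct cell migration by binding G protein-coupled receptors, and the CC and CXC families are named for the spacing of their first cysteines. Inducible chemokines are transcribed on inflammatory signals: Ccl2 and Ccl7 attract monocytes through Ccr2, Cxcl1 and Cxcl2 attract neutrophils through Cxcr2, and Cxcl9 and Cxcl10 are interferon-induced ligands of Cxcr3 on T cells. Homeostatic chemokines such as Cxcl12 and Cxcl14 are made without such signals. Atypical receptors bind chemokines without signaling through G proteins, and Ackr3 takes up Cxcl12, which also binds Cxcr4. In the brain, Cx3cl1 is known as a ligand of neurons that binds Cx3cr1 on microglia.

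The promoters of inducible CXC ligands are shown because Cxcl1 was the member called between BAL101553 and control libraries, and Cxcl2 and Cxcl3 lie near it on chromosome 5. Cxcl10 and Cxcl14 are shown beside them as the interferon-induced ligand with the most reads in SB28 libraries and the most abundant member of the libraries labelled astrocytes. Each run holds the 250 bases before the RefSeq start site (GRCm38.p6), 5′ to 3′ on the strand of the gene. Capitals mark letters that match GGGNNTTTC (the NF-kB motif), GAAANNGAA (the interferon-stimulated response element) or TATAAA (a core promoter motif) on either strand.
Cxcl1, chr5:90890995-90891244, plus strand: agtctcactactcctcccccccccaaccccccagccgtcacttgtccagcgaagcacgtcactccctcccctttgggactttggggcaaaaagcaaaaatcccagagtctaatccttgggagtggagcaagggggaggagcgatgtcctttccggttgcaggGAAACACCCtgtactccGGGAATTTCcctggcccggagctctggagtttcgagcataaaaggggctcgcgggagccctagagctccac
Cxcl2, chr5:90903649-90903898, plus strand: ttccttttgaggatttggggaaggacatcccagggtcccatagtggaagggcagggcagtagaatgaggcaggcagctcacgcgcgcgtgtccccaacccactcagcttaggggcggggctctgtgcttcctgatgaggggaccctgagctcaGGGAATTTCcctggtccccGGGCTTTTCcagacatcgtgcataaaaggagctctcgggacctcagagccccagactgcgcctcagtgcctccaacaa
Cxcl3, chr5:90785851-90786100, plus strand: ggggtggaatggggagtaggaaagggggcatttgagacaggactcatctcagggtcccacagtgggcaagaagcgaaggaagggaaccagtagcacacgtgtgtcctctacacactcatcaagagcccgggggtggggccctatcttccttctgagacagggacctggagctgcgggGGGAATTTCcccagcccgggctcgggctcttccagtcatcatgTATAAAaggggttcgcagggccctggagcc
Cxcl10, chr5:92348890-92349139, minus strand: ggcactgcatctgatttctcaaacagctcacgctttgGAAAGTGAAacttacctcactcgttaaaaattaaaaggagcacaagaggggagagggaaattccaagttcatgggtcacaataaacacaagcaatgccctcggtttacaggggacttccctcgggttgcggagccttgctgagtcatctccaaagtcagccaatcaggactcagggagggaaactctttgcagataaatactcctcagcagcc
Cxcl14, chr13:56296552-56296801, minus strand: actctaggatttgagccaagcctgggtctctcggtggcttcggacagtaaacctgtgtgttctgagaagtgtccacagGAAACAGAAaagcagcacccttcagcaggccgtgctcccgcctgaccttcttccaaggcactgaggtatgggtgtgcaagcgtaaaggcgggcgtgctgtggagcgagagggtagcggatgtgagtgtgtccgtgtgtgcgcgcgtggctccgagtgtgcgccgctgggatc

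The NF-kB letters began at -88 and -71 from the start site of Cxcl1, at -97 and -78 for Cxcl2 and at -73 for Cxcl3, where TATAAA also stood at -30. The response element letters began at -213 for Cxcl10 and at -172 for Cxcl14. RefSeq promoters were found for 45 members. Among these, 11 held GGGNNTTTC (24.4%, against 3.79% of all 27025 promoters), 8 held GAAANNGAA (17.8% against 7.16%) and 13 held TATAAA (28.9% against 13%). The hypoxia letters ACGTG stood in 6 of the 45 (13.3% against 16.6%). These are matches of letters, not binding sites. For members the window nearest the GENCODE start was taken, and for all promoters the first listed per gene. The shares are therefore not built alike. Windows of Ccl1, Ccl21b and Ccr9 lay 125878, 82647 and 88772 bases from that start. Ccl2, Ccl4, Ccl5, Ccl7 and Cxcl5 had no window.

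Total counts ran from 22919523 to 34013875 per library, and 35 to 39 members had a count in an SB28 library against 46 to 48 in a library labelled astrocytes. Levels are given as CPM, counts relative to library size after scaling by the trimmed mean of M values (TMM), on which 3 reads correspond to 0.0884 to 0.135 CPM. In control and BAL101553 libraries, the leukocyte gene Ptprc (CD45) had 2 to 8 reads and Itgam (CD11b) 1 to 13, and the neutrophil genes S100a9, Camp and Ngp were listed at 0. The 14 microglia and macrophage markers summed to 46.5 to 62.9 CPM in these libraries, and to 663, 1385 and 1033 CPM in libraries 1, 2 and 3 labelled astrocytes. The 10 astrocyte markers summed to 12431 to 15209 CPM in the libraries labelled astrocytes, against 760 to 1144 in SB28 libraries. The 6 oligodendrocyte markers reached 10282 to 12723 CPM in the former, so their label covers only some of the cell types whose markers they hold.

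SB28 cells transcribed a short list of chemokine genes. Of the 61 members, 15 averaged at least 1 CPM in control and likewise 15 in BAL101553 libraries, 42 stayed under 1 CPM in all 6 libraries and 16 were listed at 0 in all 6. The 2 largest shares were those of Cx3cl1 and Ackr3. Cx3cl1, which encodes a membrane-bound ligand, held 31.6% of the summed CPM of the 61 members in control and 31.8% in BAL101553 libraries, and Ackr3 held 34.7% and 21.8%. The sum over the members was 516, 444 and 473 CPM in control and 543, 463 and 546 CPM in BAL101553 libraries.

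**Figure D1:**
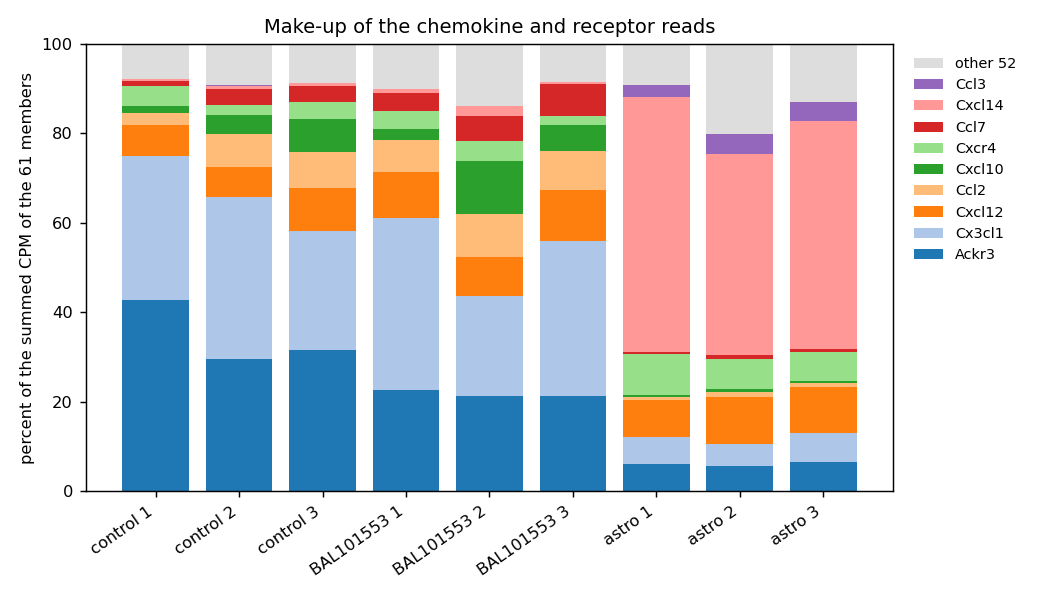
Share of each of 9 members in the summed CPM of the 61 members (y axis, percent) in each library (x axis; astro, labelled astrocytes), with the other 52 members in gray. Ackr3 and Cx3cl1 average 34.7 and 31.6% of the control bars and 21.8 and 31.8% of the BAL101553 bars, and Cxcl14 fills 44.8 to 57.1% of the bars of libraries labelled astrocytes.

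Per kb of exon, the order in control libraries was Ackr3 (50.02 ± 14.2 CPM per kb, SD, n = 3), Cx3cl1 (38.3 ± 5.5), Ccl2 (24.6 ± 11.4), Ccl7 (15.6 ± 8.22), Cxcr4 (9.35 ± 3.56) and Cxcl10 (9.34 ± 5.77). In BAL101553 libraries it was Cx3cl1 (42.5 ± 14.3 CPM per kb), Ccl2 (38.6 ± 3.95), Ccl7 (36.2 ± 10.3), Ackr3 (33.7 ± 3.73), Cxcl10 (14.7 ± 9.32) and Cxcl1 (12.9 ± 3.68). Neighbors in these orders differed by less than the larger of their SDs, apart from the step from Cx3cl1 to Ccl2 in control and from Ackr3 to Cxcl10 in BAL101553 libraries.

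**Figure D2:**
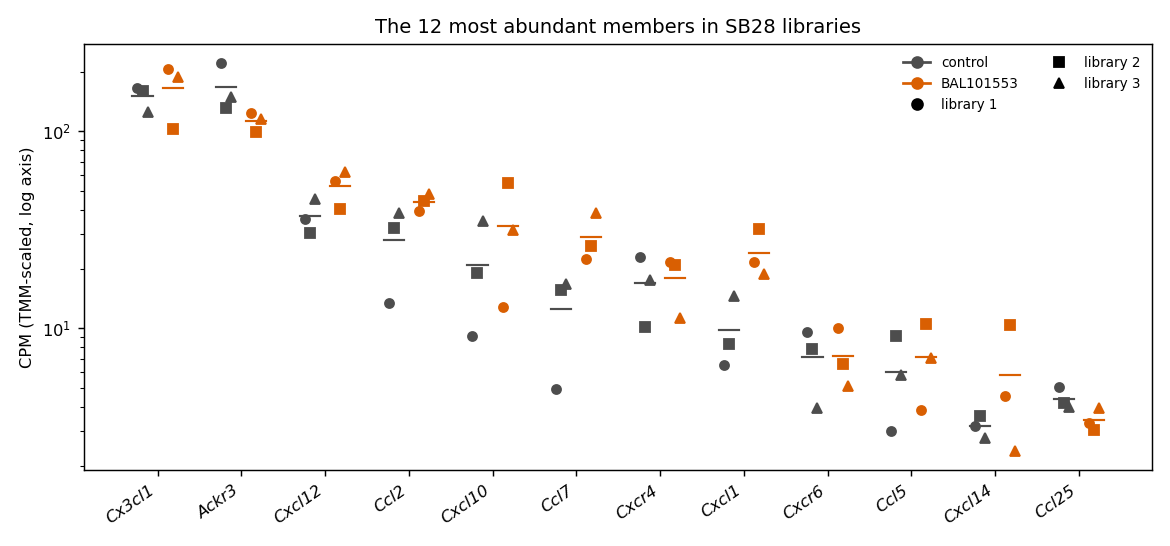
CPM (y axis, log scale) of the 12 members with the highest mean over control (gray) and BAL101553 (orange) libraries; symbols give the library and lines the group mean. Control library 1 is the lowest point for Ccl2, Ccl7, Cxcl10, Cxcl1 and Ccl5 and the highest for Ackr3.

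Between BAL101553 and control libraries, 22 members had enough reads to be tested, and 1 was called: Cxcl1 rose 2.49-fold. With the quasi-likelihood test of edgeR, adjusted by Benjamini-Hochberg across the 12633 rows tested, 1 of 22 members was higher, where 8.64% of all rows were, and 0 were lower, where 6.09% of all rows were. At an unadjusted p under 0.05 there were 4 members higher and 3 lower, where 4306 of the 12633 rows passed in either direction. DESeq2 called 2 members higher and 2 lower, where 1495 and 1337 of all rows were. For edgeR's exact test these were 3 and 2 members (1469 and 1022 rows), and for limma-trend 1 and 0 (1112 and 804 rows). The log2 fold change was above 0 for 15 of the 22, with a median of 0.21 against 0.02 for all rows tested. The 16 ligands tested had 13 values above 0 and the 6 receptors had 2.

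**Figure D3:**
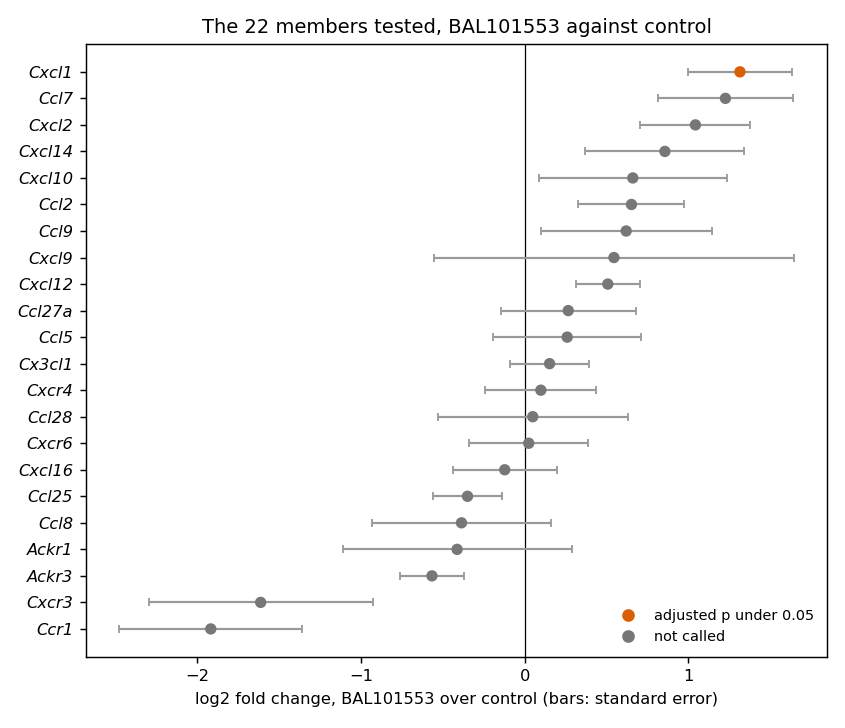
Log2 fold change of BAL101553 over control (x axis, with standard error from edgeR) for the 22 members tested (y axis). Cxcl1, in orange at 1.31, is the member past the threshold; Ccl7 and Cxcl2 stand next to it and Ccr1 and Cxcr3 at the other end.

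Among the ligands of Cxcr2, which attract neutrophils, Cxcl1 was at 6.51, 8.30 and 14.6 CPM in control libraries and at 21.8, 32.0 and 18.9 CPM in BAL101553 libraries. Every BAL101553 library stood above every control library. The log2 fold change was 1.31 (SE 0.32, adjusted p = 0.0343). The call was kept without control library 3 and lost without each of the other libraries, with an adjusted p of 0.0587, 0.0612 and 0.0563 without BAL101553 library 1, 2 and 3 and of 0.0941 and 0.0894 without control library 1 and 2, while the log2 fold change ran from 1.06 to 1.47. Cxcl2, whose start lies 10.8 kb beyond the end of Cxcl1, was at 0.449, 0.682 and 0.673 CPM in control and at 1.06, 1.07 and 1.59 CPM in BAL101553 libraries. These groups did not overlap either, and the log2 fold change of 1.04 (SE 0.34) was not called (adjusted p = 0.0721), although edgeR's exact test called it (adjusted p = 0.0472). Cxcl5 was too low to be tested, with 0, 0 and 1 reads in control libraries and 6, 31 and 6 reads in BAL101553 libraries. Its ratio was 35.2, with an exact 95% counting interval from 5.99 to 1421 that covers counting error only, and BAL101553 library 2 held most of the reads. Cxcl5 was singled out after its values were seen, and it was called with no filter on low counts and in a model of all 9 libraries. Cxcl3 stayed at or under 0.147 CPM in every library, and the receptor Cxcr2 at 0.158 to 0.404 CPM in SB28 libraries. The 5 neutrophil markers summed to 0.589 to 1.14 CPM in control and 1.12 to 3.01 CPM in BAL101553 libraries, nearly all of it S100a8, with the other defining genes named above at 0.

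The monocyte attractants Ccl2 and Ccl7, 8.26 kb apart on chromosome 11, were among the most abundant ligands of SB28 cells. Ccl7 was at 4.89, 15.7 and 16.8 CPM in control and at 22.5, 26.3 and 38.3 CPM in BAL101553 libraries. The groups did not overlap, but the log2 fold change of 1.23 (SE 0.41) was not called (adjusted p = 0.0819). Ccl7 was called by DESeq2 (adjusted p = 0.0109) and by edgeR's exact test (adjusted p = 0.0277). Ccl2 was at 13.5, 32.1 and 38.5 CPM in control and at 39.2, 44.2 and 48.2 CPM in BAL101553 libraries. The lowest BAL101553 library exceeded the highest control library by less than 1 CPM, and the log2 fold change of 0.65 (SE 0.32) was not called (adjusted p = 0.197). Control library 1 set much of the control spread: the highest control value was 2.85 times the lowest for Ccl2 and 3.44 times for Ccl7, against 1.23 and 1.70 times among BAL101553 libraries. Ccr2, the receptor of both, was listed at 0 in all 6 SB28 libraries. Ccl12, another Ccr2 ligand further along chromosome 11, was at or under 0.0842 CPM in every SB28 library, below the CPM of 3 reads.

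The interferon-induced ligand Cxcl10 was at 9.15, 19.0 and 34.9 CPM in control and at 12.8, 54.7 and 31.6 CPM in BAL101553 libraries. Its groups overlapped and the highest library of a group held 3.81 times the lowest in control and 4.27 times in BAL101553. The log2 fold change was 0.66 (SE 0.57, adjusted p = 0.449). Its exons overlap Art3 on the opposite strand. The study's methods name a stranded library protocol, but the strand setting of the counting is not given in the sources used here. Reads of the pair may therefore not be separable in these counts. Cxcl9 had 0 to 18 reads per SB28 library. Ccl5, which binds Ccr1 and Ccr3 on leukocytes, was at 3.01, 9.09 and 5.81 CPM in control and at 3.86, 10.5 and 7.04 CPM in BAL101553 libraries, with overlap (log2 fold change 0.26, SE 0.45, adjusted p = 0.716). In both groups the library with the most Ccl5 was library 2 and that with the least was library 1.

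Receptors of these ligands were low in SB28 libraries, and Ccr1 and Cxcr3 were the ones with enough reads to be tested. Ccr1 was at 3.32, 1.14 and 1.56 CPM in control and at 0.889, 0.395 and 0.295 CPM in BAL101553 libraries. All control libraries stood above all BAL101553 libraries, and the log2 fold change of -1.92 (SE 0.56) was not called (adjusted p = 0.0552), although it was without BAL101553 library 1 (-2.53, adjusted p = 0.0471). Ccr1 was also called by DESeq2 (adjusted p = 0.0159), by edgeR's exact test (adjusted p = 0.0123) and with no filter on low counts (adjusted p = 0.0463). Cxcr3 was at 1.26, 0.189 and 1.18 CPM in control and at 0.376, 0.158 and 0.295 CPM in BAL101553 libraries. Control library 2 stood apart from the other controls, and the log2 fold change of -1.61 (SE 0.68, adjusted p = 0.141) became -2.11 without it (adjusted p = 0.0368). Ccr4 had 1 read in each of 2, Ccr3 1 read in each of 2 and Ccr10 1 read in 1. In these bulk libraries, fewer cells of a type and less RNA per cell cannot be told apart.

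The Cxcl12 axis was expressed on both the ligand and the receptor side. Cxcl12 was at 36.0, 30.4 and 45.3 CPM in control and at 55.8, 40.2 and 62.0 CPM in BAL101553 libraries. The groups overlapped through BAL101553 library 2, and the log2 fold change of 0.51 (SE 0.19) was not called (adjusted p = 0.111), whereas without that library it was 0.66 (adjusted p = 0.0421). Cxcr4, its signaling receptor, was at 22.9, 10.1 and 17.7 CPM in control and at 21.8, 21.1 and 11.3 CPM in BAL101553 libraries, which overlapped widely (log2 fold change 0.10, SE 0.34, adjusted p = 0.857). Ackr3, its scavenging receptor, was at 221, 131 and 150 CPM in control and at 123, 99.0 and 116 CPM in BAL101553 libraries. These did not overlap, and the log2 fold change was -0.57 (SE 0.19, adjusted p = 0.0849). Ackr3 was called by DESeq2 (adjusted p = 0.0247) and by edgeR's exact test (adjusted p = 0.0378).

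Cx3cl1 was at 165, 161 and 126 CPM in control and at 208, 103 and 189 CPM in BAL101553 libraries. BAL101553 libraries held both the highest and the lowest value (log2 fold change 0.15, SE 0.24, adjusted p = 0.690). Its receptor Cx3cr1, a marker of microglia, had 1 to 13 reads in these libraries. Cxcl16, a membrane-bound ligand, was at 4.89, 2.46 and 3.79 CPM in control and at 4.38, 2.56 and 3.24 CPM in BAL101553 libraries. Its receptor Cxcr6, better known from T cells, was read in every SB28 library, at 9.56, 7.88 and 3.96 CPM in control and 10.1, 6.59 and 5.07 CPM in BAL101553 libraries (94 to 294 reads). Neither differed between the groups by more than its spread, with log2 fold changes of -0.12 (SE 0.32, adjusted p = 0.813) for Cxcl16 and 0.02 (SE 0.36, adjusted p = 0.968) for Cxcr6. The 8 T and NK cell markers summed to 0 to 0.168 CPM in these libraries, with Cd3d, Cd3e, Cd8a, Ncr1 and Klrb1c listed at 0. Exons of Cxcl16 overlap Zmynd15 on the opposite strand.

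The homeostatic Cxcl14 was at 3.19, 3.60 and 2.78 CPM in control and at 4.55, 10.4 and 2.39 CPM in BAL101553 libraries, where library 2 stood apart (log2 fold change 0.86, SE 0.49, adjusted p = 0.250). Ccl25, a ligand of Ccr9 known from thymus and gut, was at 5.03, 4.17 and 4.0 CPM in control and at 3.32, 3.04 and 3.95 CPM in BAL101553 libraries. The groups did not overlap, with 4.0 and 3.95 CPM as their nearest values (log2 fold change -0.35, SE 0.21, adjusted p = 0.279), and exons of Ccl25 overlap Elavl1 on the opposite strand. Ccl27a was at 0.942, 0.341 and 0.589 CPM in control and at 0.787, 0.671 and 0.766 CPM in BAL101553 libraries. It overlaps Il11ra1 on the opposite strand and has a near-identical copy, Ccl27b, so its reads are uncertain.

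Genes that induce chemokines were counted as a list. It held cytokines, receptors and signal carriers of TNF, IL-1, IL-6, IL-17, toll-like receptors and interferon. Transcription factors such as Jun, Fos, Cebpb and Hif1a were also in it. Of 45 tested between BAL101553 and control, 5 rose (11.1%, against 8.64% of all rows) and 40 were not called, with a median log2 fold change of 0.13. Without control library 3, 0 of them were called higher, and without each of the other libraries 1 to 4. Calls fell over all rows too, to 152 higher of 12871 without control library 3 and to 333 to 977 without each other library. Il1r1, the IL-1 receptor, rose by 0.93 on the log2 scale (SE 0.17, adjusted p = 0.0159), a call lost without control library 1 or 3 (adjusted p = 0.0582 and 0.0661). Il6ra rose by 0.67 (SE 0.11, adjusted p = 0.0134), and its call was lost without control library 3 (adjusted p = 0.0676).

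Of 50 tested genes that carry signals from chemokine receptors, 7 rose (14%, against 8.64% of all rows) and 9 fell (18%, against 6.09%), with a median of -0.12. Without control library 3, 0 were called higher and 1 lower, and without each of the other libraries 3 to 5 higher and 1 to 6 lower. Over all rows these counts were 152 higher and 41 lower of 12871, and 333 to 977 higher and 125 to 735 lower. The kinase gene Jak3 rose from 9.96, 8.68 and 6.86 CPM to 22.5, 50.3 and 23.9 CPM (log2 fold change 1.93, SE 0.33, adjusted p = 0.0140), and its call was lost without control library 3 (adjusted p = 0.0667). The G protein gene Gng11 fell (log2 fold change -1.04, SE 0.13, adjusted p = 0.00728) and kept its call without each library in turn. Of 7 tested genes named beside chemokines but outside the rule, the chemerin receptor Cmklr1 was called higher (log2 fold change 0.70, SE 0.16, adjusted p = 0.0309) and Cmtm7 lower (-0.51, SE 0.14, adjusted p = 0.0494). These 2 calls were kept without BAL101553 library 2 and lost without any other library, with an adjusted p of 0.0722 to 0.113 for Cmklr1 and of 0.0843 to 0.137 for Cmtm7.

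Between libraries labelled astrocytes and BAL101553 libraries, both from treated mice, 33 of the 61 members had enough reads to be tested. This comparison shares the BAL101553 libraries with the one above. Of the 33, 17 were higher (51.5%, against 7085 of 15314 rows, 46.3%, overall) and 9 were lower (27.3%, against 38.9% of all rows), with 7 not called. The median log2 fold change was 1.03 for the members against 0.18 for all rows. When total counts replaced TMM, that median of all rows became 0.39. Of 9 receptors tested, 7 were higher and 2 lower, and of 24 ligands 10 were higher and 7 lower. Ccr2, Ccl22, Ccl24 and Ccr9 had 0 reads in BAL101553 libraries and passed the filter only through the other group, which fixed their direction. The same holds for Ccl3, Ccl4, Ccl6, Ccl12 and Ccl19, at no more than 4 reads per BAL101553 library. With at least 10 reads in every library, 16 members were tested, and 5 were higher and 7 lower. The number called higher and the median thus rest in part on the filter. The sums of the members' CPM, 464, 495 and 507 in the libraries labelled astrocytes, lay within the range of the SB28 libraries under TMM. With total library size they were 515, 558 and 586, against 408 to 545 in SB28 libraries.

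**Figure D4:**
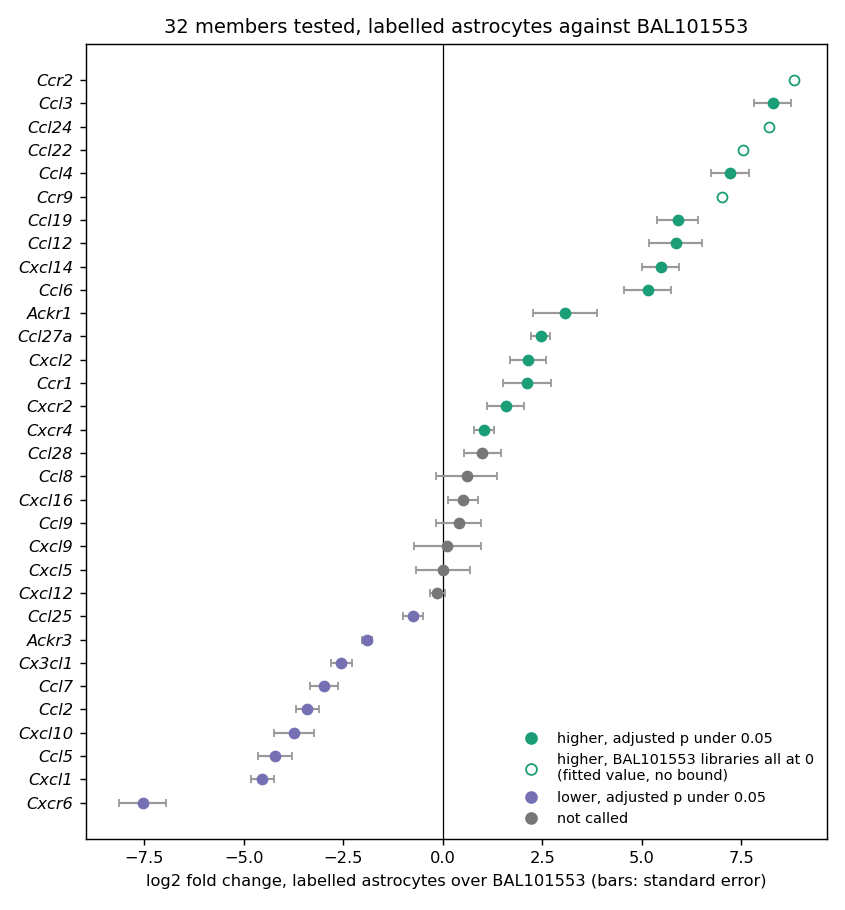
Log2 fold change of libraries labelled astrocytes over BAL101553 libraries (x axis, with standard error from edgeR) for 32 of the members tested (y axis). Filled green points were higher and purple points lower; open points mark 4 members at 0 in every BAL101553 library, whose fitted value is no bound.

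Cxcl14 was the most abundant member of the libraries labelled astrocytes. It was at 265, 222 and 258 CPM there, against 2.39 to 10.4 CPM in BAL101553 libraries (log2 fold change 5.47, SE 0.47, adjusted p = 1.06e-05). Without BAL101553 library 2 the log2 fold change was 6.17. Per kb of exon it reached 136 ± 12.6 CPM per kb, above Ccl3 (24.6 ± 7.71), Cxcr4 (20.1 ± 3.13) and Ccl4 (18.6 ± 5.81), which lay within 1 SD of each other. Its 3 libraries differed by at most 1.19 times, the narrowest spread among the members above 3 CPM in that group.

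The macrophage inflammatory proteins Ccl3 and Ccl4, 13.2 kb apart, were higher than in BAL101553 libraries. Ccl3 was at 12.1, 23.1 and 21.4 CPM in the libraries labelled astrocytes and had 1 to 3 reads in each BAL101553 library (log2 fold change 8.29, SE 0.47, adjusted p = 1.08e-06). Ccl4 was at 8.05, 15.5 and 13.2 CPM and had 1 to 4 reads in each BAL101553 library (7.21, SE 0.48, adjusted p = 2.45e-06). Without BAL101553 library 2 these became 9.04 and 7.89. Ccr2 was at 0.555, 4.14 and 1.02 CPM against 0 reads in BAL101553 libraries, at least 18.5-fold higher with 3 reads per library as the floor (adjusted p = 0.00385), and most of its reads came from library 2, without which the bound was 7.63-fold. Ccr1 was at 0.925, 3.66 and 2.23 CPM, above each BAL101553 library and overlapping the control libraries (log2 fold change 2.12, SE 0.60, adjusted p = 0.0103; 2.71 without BAL101553 library 1).

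Further ligands of myeloid cells were higher as well. Ccl12 was at 1.66, 5.69 and 3.13 CPM (log2 fold change 5.86, SE 0.67, adjusted p = 6.01e-05). Ccl6 was at 1.29, 3.90 and 2.38 CPM (5.15, SE 0.59, adjusted p = 6.46e-05). Cxcl2 was at 2.47, 8.11 and 5.81 CPM, above the 1.06 to 1.59 CPM of BAL101553 libraries (2.14, SE 0.45, adjusted p = 0.00218), and its receptor Cxcr2 at 0.401, 0.966 and 0.453 CPM (1.58, SE 0.46, adjusted p = 0.0121). Ccl24 (0.894, 0.966 and 1.85 CPM) and Ccl22 (0.956, 0.793 and 0.604 CPM) were at 0 in BAL101553 libraries, at least 12-fold and 7.61-fold higher. Library 2 was highest, library 3 next and library 1 lowest for all 14 microglia and macrophage markers. That order held for 12 of the 17 members called higher, 4 of the 9 called lower and 2 of the 7 not called. It also held for 3 of 4 perivascular macrophage, 3 of 5 neutrophil, 3 of 5 mural and 3 of 6 dendritic cell markers. For endothelial and for T and NK cell markers it was 2 of 8 each, and for neuron markers 1 of 7. It held for 0 of 10 astrocyte and 0 of 6 oligodendrocyte markers. The share of all rows with that order was not counted, so whether these counts exceed it is not known. The part of microglia or macrophages in these libraries was not tested. The fractalkine receptor Cx3cr1, outside the rule, was at 72.6, 138 and 113 CPM, against at most 0.445 CPM in BAL101553 libraries (log2 fold change 8.75, SE 0.45, adjusted p = 5.98e-07; 9.44 without BAL101553 library 1).

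Cxcr4 was at 42.9, 33.1 and 33.1 CPM in the libraries labelled astrocytes and at 21.8, 21.1 and 11.3 CPM in BAL101553 libraries (log2 fold change 1.03, SE 0.24, adjusted p = 0.00435). Library 1, lowest for the microglia markers, was highest here, and which cells held these reads was not tested. Ccl19, a ligand of Ccr7, was at 1.39 to 1.83 CPM (ratio 70.5, 95% counting interval 19.2 to 588; fitted log2 fold change 5.91, and 5.31 without BAL101553 library 3). Ccl27a was at 3.88, 3.52 and 4.79 CPM (log2 fold change 2.46, SE 0.24, adjusted p = 2.33e-05). Ackr1, the chemokine receptor of erythrocytes and venules, was at 1.17, 7.31 and 1.47 CPM (3.07, SE 0.80, adjusted p = 0.00682), and its exons overlap Cadm3 on the same strand. Library 2 held most of the Ackr1 reads of that group, and without it the log2 fold change was 1.74 (adjusted p = 0.00626). Ccr9 was at 0.493, 0.586 and 0.566 CPM against 0, at least 5.32-fold higher (adjusted p = 0.000151), with exons that overlap Slc6a20a on the opposite strand.

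The 9 members called lower were among the 12 most abundant members of SB28 libraries, the other 3 being Cxcl12, Cxcr4 and Cxcl14, and the BAL101553 libraries entered that ranking. Cxcr6 had 0, 1 and 2 reads in the libraries labelled astrocytes against 294, 167 and 172 in BAL101553 libraries, a ratio of 0.00477 (95% counting interval 0.000982 to 0.0140). The fitted log2 fold change of -7.54 became -6.94 without library 1 and -8.44 without library 3 labelled astrocytes. Cxcl1 was at 0.801, 1.35 and 0.944 CPM (log2 fold change -4.53, SE 0.29, adjusted p = 1.83e-06). Ccl5 was at 0.370, 0.345 and 0.415 CPM (-4.21, SE 0.42, adjusted p = 2.79e-05). Cxcl10 was at 2.16, 2.62 and 2.49 CPM (-3.75, SE 0.50, adjusted p = 0.000157). The groups did not overlap for any of these.

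Ccl2 was at 2.40, 5.62 and 4.34 CPM in the libraries labelled astrocytes (log2 fold change -3.40, SE 0.28, adjusted p = 8.99e-06) and Ccl7 at 2.03, 5.04 and 3.93 CPM (-2.98, SE 0.35, adjusted p = 7.01e-05). Cx3cl1 was at 28, 25 and 32 CPM (-2.55, SE 0.26, adjusted p = 3.36e-05). Ackr3 was at 27.8, 27.6 and 33.6 CPM (-1.91, SE 0.12, adjusted p = 2.16e-06). Ccl25, at 1.57, 2.0 and 2.57 CPM, was the weakest call (-0.74, SE 0.25, adjusted p = 0.0245) and was lost without library 1 or 2 labelled astrocytes (adjusted p = 0.110 and 0.0760) and without BAL101553 library 3 (adjusted p = 0.0692). Cxcl12, at 39.1, 51.8 and 52.0 CPM, overlapped the BAL101553 libraries (log2 fold change -0.13, SE 0.19, adjusted p = 0.514). Cxcl16 did too, at 3.18, 7.45 and 3.77 CPM (0.51, SE 0.37, adjusted p = 0.223).

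**Figure D5:**
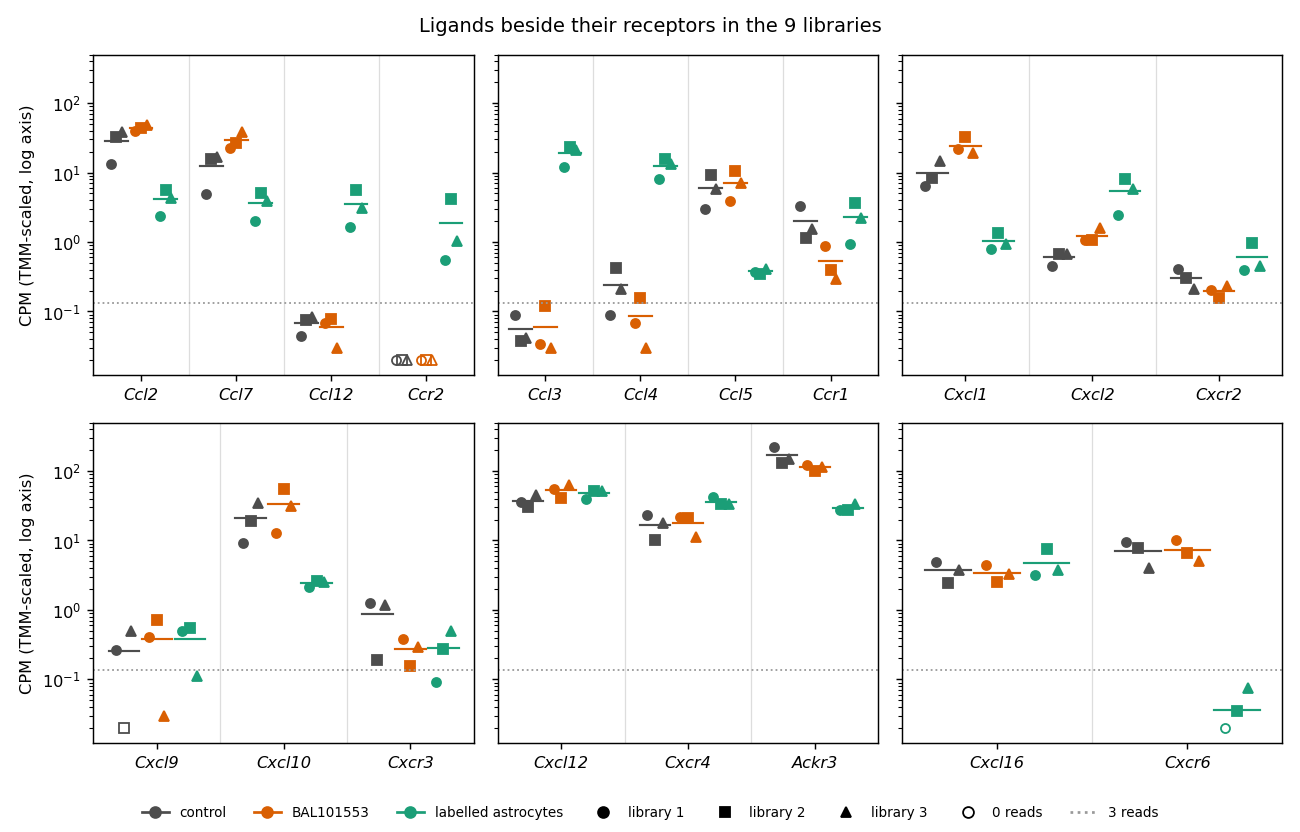
CPM (y axis, log scale) of ligands beside their receptors in control (gray), BAL101553 (orange) and labelled astrocyte (green) libraries; symbols give the library, lines the group mean, open symbols 0 reads and the dotted line the CPM of 3 reads in the library with the smallest effective size. Ccr2 lies under that line in SB28 libraries, and Cxcr6 does in the libraries labelled astrocytes.

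Ligands and their receptors were not always read in the same libraries. Ccl2 and Ccl7 averaged 43.9 and 29.0 CPM in BAL101553 libraries, where Ccr2 was at 0, and 4.12 and 3.67 CPM in the libraries labelled astrocytes, where Ccr2 averaged 1.90 CPM. Cxcl16 was read in all groups and Cxcr6 in SB28 libraries. Cxcl12, Cxcr4 and Ackr3 were read in all 9 libraries. Of 48 tested genes of the inducer list, 12 were higher in the libraries labelled astrocytes (25%, against 46.3% of all rows) and 30 lower (62.5%, against 38.9%), with a median log2 fold change of -1.06. Tnf (7.69, SE 0.52, adjusted p = 2.73e-06) and Il1b (7.65, SE 1.19, adjusted p = 0.000394; 6.33 without library 2 labelled astrocytes, adjusted p = 0.000179) were higher, and Nfkb2 (-3.0, SE 0.14, adjusted p = 3.15e-07) and Il1r1 (-3.32, SE 0.16, adjusted p = 4.16e-07) lower. Of 60 signaling genes tested, 25 were higher (41.7%, against 46.3%) and 25 lower (41.7%, against 38.9%), with a median of -0.15, among them Dock2, an activator of Rac in leukocytes (9.05, SE 0.62, adjusted p = 3.02e-06; 10.95 without BAL101553 library 2), and Rgs16, a regulator of G protein signaling (-6.39, SE 0.28, adjusted p = 2.73e-07). Of the 12 tested genes outside the rule, 7 were higher and 5 lower (58.3 and 41.7%).

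Members that neighbor each other on a chromosome did not all share a pattern. On chromosome 11 (82035571 to 82305690), the group from Ccl2 to Ccl1 summed to 41.6 CPM in control, 73.8 in BAL101553 libraries and 12.5 in those labelled astrocytes. Its members Ccl2 and Ccl7 were lower and Ccl12 higher in the last group, while Ccl8 was not called. The Ccl5 to Ccl4 group (83525778 to 83664683) summed to 8.40, 10.3 and 37.9 CPM, with Ccl5 lower and Ccl3, Ccl4 and Ccl6 higher. On chromosome 5, the Cxcl5 to Cxcl2 group (90759360 to 90905938) summed to 10.4, 26.1 and 7.06 CPM, and its Cxcl1 and Cxcl2 went opposite ways in the libraries labelled astrocytes. On chromosome 9, Cxcr6 overlaps the region of Fyco1, on the opposite strand, without sharing exon bases.

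The other members were low. Ccl1, Ccl21a, Ccl21b, Ccl21c, Ccl27b, Ccr8, Cxcl15, Cxcr1 and Xcl1 were listed at 0 in all 9 libraries, and the copies of Ccl21 are so alike that their reads may not be assigned. Ccl20, a ligand of Ccr6 that was named after its values were seen, had 5 to 18 reads in each SB28 library and 0 in the libraries labelled astrocytes. Cxcl13, a B cell attractant also named after its values were seen, had 34 of its reads in astrocyte library 2, with 0 and 2 in libraries 1 and 3. Ccr7 had 2 to 5 reads in SB28 libraries and 4 to 10 in the others. Ccl9 was at 1.39 to 2.84 CPM in control, 1.07 to 4.72 in BAL101553 libraries and 2.0 to 6.0 in the libraries labelled astrocytes, without a call in either comparison.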

How the data were processed

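Bulk RNA-seq counts of 9 libraries (3 control, 3 BAL101553, 3 labelled astrocytes) were analysed. Per the labels and the study's methods, the authors aligned reads to mm10 with TopHat and deposited raw counts per gene symbol from HTSeq 0.6.1; the annotation and the strand setting of the counting are not given in the sources used here. No sample column was left unused (0). Replicate libraries of a group differed by more than sampling noise.

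Each comparison was fitted on the 6 libraries of its groups with edgeR 4.0.16 (R 4.3.3): filterByExpr, TMM, quasi-likelihood test, p-values adjusted by Benjamini-Hochberg across every row tested, threshold 0.05. SE is the log2 fold change over the square root of F. CPM levels used TMM over all 9 libraries, and exon lengths came from GENCODE vM21 (GRCm38). The fitting was tested on simulated data. Alternatives were DESeq2 1.42.0, limma 3.58.1, edgeR's exact test, other scalings and filters, a replicate block, 9 libraries in one model and each library left out. Per-library values are given for the member called in BAL101553 against control, the 12 most abundant members of SB28 and of astrocyte-labelled libraries, the 5 largest calls per direction and their partner ligands or receptors. The members and lists were chosen with earlier results of these data known. Motifs were searched in RefSeq promoters. The values of 1 member are not reported here. Amino acid sequences were not used here.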

Additional observations from a re-analysis of the deposited data

How the results depend on the processing

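Against control, 1 member was called higher and 0 lower with BAL101553; these counts were 2 and 1 with no filter beyond 1 read in any library, 2 and 2 with DESeq2, 3 and 2 with edgeR's exact test and 2 and 0 in a model of all 9 libraries. Leaving out 1 library gave 0 to 1 higher and 0 to 1 lower. Calls over all rows then ranged from 193 (without control library 3) to 1712, against 1860 with all 6 libraries. Over all rows DESeq2 called 2832, edgeR's exact test 2491, the 9-library model 3022 and the fit with no filter beyond 1 read 1854. Total library size in place of TMM split the calls over all rows into 1456 higher and 425 lower, against 1091 and 769.

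Whether the replicate numbers pair the libraries cannot be settled with 3 libraries per group, and the main fit used no pairing. Same-number deviations correlated at 0.143, 0.0113 and 0.145 between BAL101553 and control. BAL101553 libraries 1 and 3 correlated best with the control library of the same number, and library 2 with control library 1 (0.0370). With a replicate block, 2 members were higher (Ccl7 and Cxcl12) and 2 lower (Ackr3 and Ccr1) of 1371 calls over all rows, and Cxcl1 had an adjusted p of 0.0502. Between the libraries labelled astrocytes and BAL101553 the block kept 17 higher and 9 lower. With at least 10 reads in every library, 16 members were tested, and 5 were higher and 7 lower. Of all 11873 rows tested that way, 4950 were higher and 4829 lower. The larger number of members called higher was therefore not kept under that filter.

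Among the members chosen by abundance, size of call or pairing, some log2 fold changes turned sign, none of them called. With BAL101553 against control these were Cx3cl1 (-0.040 to 0.40 over the libraries left out in turn), Cxcr4 (-0.18 to 0.38), Cxcr6 (-0.29 to 0.29), Ccl5 (-0.13 to 0.69), Cxcl16 (-0.36 to 0.12) and Ccl27a (-0.049 to 0.68). In the libraries labelled astrocytes against BAL101553 it was Cxcl12 (-0.31 to 0.0058, 0.072 with total library size and 0.093 with the 10-read filter). Members outside that choice also turned sign with a library left out. They were Ackr1, Ccl28 and Cxcl9 against control, and Ccl8, Ccl9, Cxcl5 and Cxcl9 in the libraries labelled astrocytes. The cause was not tested. With total library size, the mean summed CPM of the members was 436 in control, 503 in BAL101553 and 553 in the libraries labelled astrocytes. With TMM and without Cx3cl1 it was 327, 350 and 460 in the same order. Depth limits members under 3 reads per library, for which a difference was not detectable.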
